A study of Mus musculus with 7 samples.

Results

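The genes described here encode the collagens of mouse prostate and the other proteins that stromal cells lay down around the glands, together with 4 surface proteins that mark fibroblasts. They form a list of 40 genes, found on the array by mapping each probe's accession to a gene symbol. Of the 40, 37 had at least 1 probe, on 54 probes in all. For 32 a probe passed the filters on brightness and outlier spots, out of 16937 items tested on the whole array. The other 3 genes, Col6a3, Col12a1 and Hspg2, had no probe named here. The list was taken by gene function, with earlier results of these data known, and falls into 8 groups by role.

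RNA was compared between 3 prostate samples of PB-NICD mice and 4 prostate samples of control mice, all on the C57Bl/6 background. PB-NICD mice carry ARR2PB-Cre, a Cre recombinase under a promoter active in prostate epithelium, and the ROSA(N1IC) allele, from which Cre releases expression of NICD, the signalling part of the Notch1 receptor. Per the labels these mice develop prostatic intraepithelial neoplasia. Control mice carry the ROSA(N1IC) allele and are labelled as NICD wild-type, so both groups share that allele and differ in the Cre. The promoter limits the model to epithelium, and the genes described here are made largely by other cells of the gland. Every sample shared a 2-colour array with a universal mouse reference RNA, and every value below is a log2 ratio of sample over reference unless another quantity is named. A change is the difference of group means on that scale, PB-NICD minus control. Where a sample is not listed for a gene, its spot was an outlier left out of the fit. A gene is said to have risen or fallen only if limma's p, adjusted by Benjamini-Hochberg over all 16937 items, was below 0.05.

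Collagens are triple helices of 3 chains. Fibrillar collagens make the tensile cords of the stroma, and network collagens make the basement membrane on which epithelium and vessels sit, where laminins and nidogens join them. Small proteoglycans coat and space the fibrils, elastic fibres give recoil, and matricellular proteins modulate how cells hold on to the matrix. In the prostate most of these proteins come from fibroblasts and smooth muscle, and the epithelium and endothelium add to the basement membrane.

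Notch1 itself was read first as a check of the labels. Its log2 ratio was 0.64, 2.63 and 2.74 on the PB-NICD arrays, against 0.05, 0.30, 0.76 and 0.67 on the control arrays. The array labelled PB-NICD 1 lay within the control range, and its spot, an outlier, did not enter the fit, in which Notch1 rose by 2.24 (adjusted p = 0.00161). With outlier spots kept the adjusted p was 0.114, and over all alternatives it ran from 1.56e-06 to 0.265. PB-NICD 1 also stood apart in its spread: the SD of log2 ratios over the matrix genes was 0.65, 0.97 and 1.07 on the arrays of PB-NICD 1, 2 and 3, against 0.87 to 1.05 on the control arrays. Over all items the SD was 0.55, 0.95 and 0.92 on the PB-NICD arrays, against 0.84 to 0.98 on the control arrays. Results are therefore given with and without that array where it decides them. PB-NICD 1, control 1 and control 2 were on 1 slide and the other 4 arrays on another. The sample channel exceeded background clearly for 53.7% to 67.2% of spots on the PB-NICD arrays, against 45.3% to 61.1% on the control arrays. The prostate and luminal epithelial markers Hoxb13, Epcam and Krt8 were well above background on all 7 arrays.

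**Figure D1:**
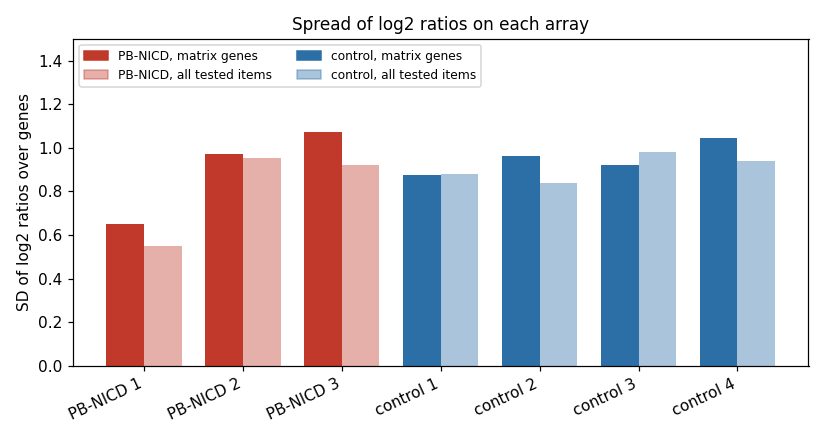
SD of the log2 ratio of sample over reference across genes on each array, full colour for the tested matrix genes and pale for all tested items, PB-NICD in red and control in blue. PB-NICD 1 has the lowest SD of the 7 arrays in both sets, 0.65 and 0.55.

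Of the 32 tested matrix genes 1 fell, the basement membrane collagen Col18a1, and none rose. Over all items 388 fell and 69 rose, which is 2.29% and 0.407% of those tested. Of these calls 84.9% were lower, against 59.3% without background subtraction, 56.4% with the software's processed signals and 61.1% in the authors' value table. At an unadjusted p below 0.05, 9 matrix genes (28.1%) were lower and 0 were higher, against 11.8% and 3.01% of all items. In 10 matrix genes (31.2%) every PB-NICD value lay below every control value, against 14.3% of all items, and in 0 every PB-NICD value lay above, against 5.08%. The lower share depended on the background handling: it was 18.8%, against 15.8% of all items, without background subtraction and 6.25%, against 12.4%, with processed signals. The change was below 0 in 28 of 32 matrix genes (87.5%), against 59% of all items. The matrix genes had a median change of -0.23, against -0.05 for all items. The background was lower among brighter probes. With only probes well above background on all 7 arrays, all items had a median change of -0.11, with 67.8% below 0. Under that filter 25 of 28 matrix genes (89.3%) were below 0, with a median of -0.23, or -0.13 relative to all items. Groups lower without overlap then made up 32.1% of matrix genes, against 19.4% of all items.

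The list as a whole thus averaged slightly lower in PB-NICD prostates, by steps that were small for each gene except Col18a1. Taken array by array against the mean of the controls on the same slide, the median difference of the matrix genes was -0.26 in PB-NICD 1, -0.38 in PB-NICD 2 and -0.23 in PB-NICD 3, while that of all items was -0.11, -0.04 and -0.03. Within the slide that held PB-NICD 2 and 3, both PB-NICD values lay below both control values in 14 of the 22 matrix genes measured on all 4 arrays (63.6%), against 31.5% of all items, and above both in 2 (9.09%), Eln and Postn, against 21%. Without PB-NICD 1 the median change was -0.35, against -0.03 for all items, 20 of the 32 genes had groups that did not overlap with PB-NICD lower, against 22.7% of all items, and Pdgfrb fell as well as Col18a1. The array-wide calls without PB-NICD 1 were 616 lower and 555 higher. Without PB-NICD 2 the median change was -0.13, against -0.06 for all items.

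The level of all items moved with the scaling. When each array was centred on its median in place of loess, the median change of all items was 0.12, a shift of over 0.1 from the loess value, and that of the matrix genes was -0.0001, or -0.12 relative to all items, where the loess values gave -0.18. Under that centring 16 of 32 matrix genes (50%) had a change below 0, against 32% of all items, and 1 item was called on the whole array. Values under median centring are therefore also given relative to the median of all items. In RNA from the whole gland, fewer stromal cells and less matrix RNA per cell cannot be told apart.

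**Figure D2:**
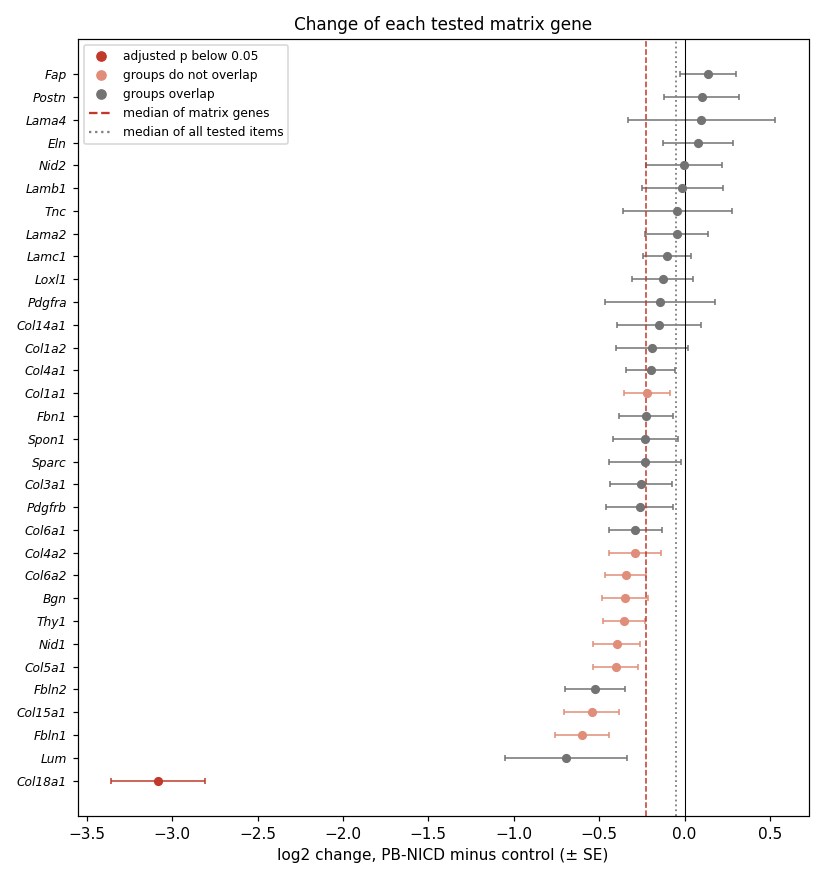
Log2 change, PB-NICD minus control, of each of the 32 tested matrix genes, with its SE from the limma fit; the dashed line marks the median of these genes (-0.23) and the dotted line that of all tested items (-0.05). Col18a1 lies at -3.08, and the other 31 genes lie between -0.69 and 0.14.

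Col18a1 encodes the chain of collagen XVIII, a basement membrane collagen with heparan sulphate chains whose C-terminal fragment is endostatin. On its brighter probe the log2 ratio was -0.35 and 0.30 in PB-NICD 1 and 2, against 2.84 and 3.27 in control 2 and 4. The fall was -3.08 ± 0.28 (SE, n = 2 each), or 8.47-fold, with an adjusted p of 0.00404. The spots of PB-NICD 3, control 1 and control 3 were marked as outliers and left out. Their values, 1.01 in PB-NICD 3 against 2.70 in control 1 and 3.07 in control 3, keep the groups apart on all 7 arrays. The background-uncorrected sample signal on that probe was 1278, 3356 and 4764 units in PB-NICD 1, 2 and 3, against 4012, 6097.5, 13713 and 19644 in control 1, 2, 3 and 4, so the raw signals of the groups overlapped where the ratios did not. The reference channel read 8825, 14729 and 13692.5 units on the PB-NICD arrays, against 10710.5 to 19360 on the control arrays.

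A second, dimmer probe assigned to the same transcript accession gave a much smaller difference. Its log2 ratio was -0.30, -0.57 and -0.27 in PB-NICD prostates, against 0.21, -0.13, -0.08 and 0.01 in controls. The groups did not overlap on this probe either, with a change of -0.39, an unadjusted p of 0.0219 and an adjusted p of 0.228 over all tested probes. With the mean of both probes in place of the brighter one, the change was -1.03 (adjusted p = 0.258). The 2 probes differed by 2.70 in their change, the only spread above 1 among the 13 matrix genes with several tested probes, and no probe sequence was given to place them on the gene. When each of the 4 samples that entered this fit was left out, which leaves 1 sample in its group, assumed to vary like the others, the brighter probe stayed called at -3.41 to -2.76 with adjusted p from 0.000796 to 0.0379. Leaving out the other 3 samples takes no value from this probe, and over all alternatives the adjusted p ran from 1.37e-06 to 0.734.

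**Figure D3:**
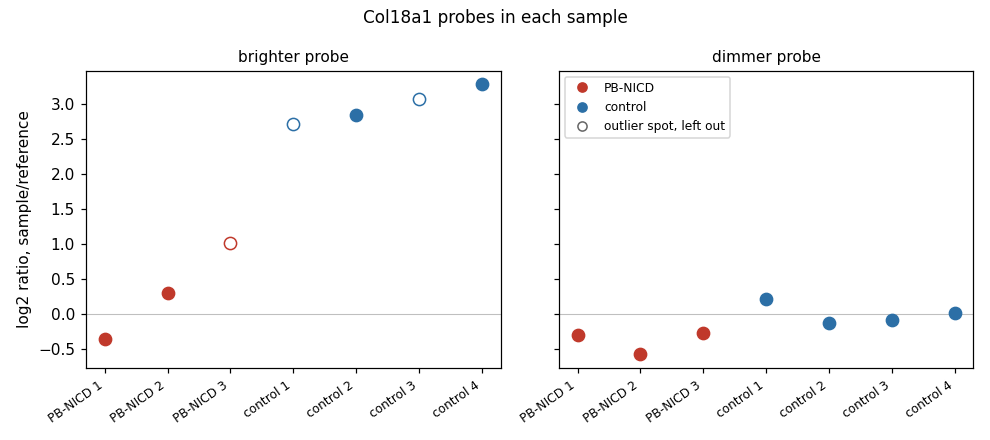
Log2 ratio of sample over reference of the 2 Col18a1 probes in each sample, PB-NICD in red and control in blue, with open circles for outlier spots left out of the fit. The brighter probe separates the groups widely, with PB-NICD values up to 1.01 against control values from 2.70, and the dimmer probe narrowly, with PB-NICD values up to -0.27 against control values from -0.13.

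Col18a1 is transcribed from more than 1 start, and RefSeq (GRCm38.p6) gives 2 start windows for it, each of 250 bases before and 50 after the start. They are printed because Col18a1 is the gene that fell, with the windows of Fbln1 and Nid1, the other genes with non-overlapping groups whose windows hold the letters TGGGAA. These letters are the core bound by RBPJ, the DNA-binding partner of NICD. Capitals mark TGGGAA or its reverse complement TTCCCA, and each window reads 5′ to 3′ on the gene's strand. The Col18a1 windows are chr10:77166481-77166780 and chr10:77113656-77113955 on the minus strand, that of Fbln1 with a match is chr15:85205699-85205998 on the plus strand, and that of Nid1 is chr13:13437352-13437651 on the plus strand.
Col18a1, distal start: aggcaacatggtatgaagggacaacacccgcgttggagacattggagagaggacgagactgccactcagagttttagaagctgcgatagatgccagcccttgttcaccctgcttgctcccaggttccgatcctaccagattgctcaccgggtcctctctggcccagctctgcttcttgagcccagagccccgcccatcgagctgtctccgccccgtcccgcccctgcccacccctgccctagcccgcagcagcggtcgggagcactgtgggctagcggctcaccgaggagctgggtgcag
Col18a1, proximal start: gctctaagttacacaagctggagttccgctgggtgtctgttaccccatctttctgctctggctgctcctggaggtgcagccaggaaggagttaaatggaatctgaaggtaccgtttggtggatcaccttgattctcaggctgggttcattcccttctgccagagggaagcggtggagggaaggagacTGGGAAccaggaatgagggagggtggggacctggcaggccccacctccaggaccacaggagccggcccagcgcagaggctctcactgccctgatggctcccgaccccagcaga
Fbln1: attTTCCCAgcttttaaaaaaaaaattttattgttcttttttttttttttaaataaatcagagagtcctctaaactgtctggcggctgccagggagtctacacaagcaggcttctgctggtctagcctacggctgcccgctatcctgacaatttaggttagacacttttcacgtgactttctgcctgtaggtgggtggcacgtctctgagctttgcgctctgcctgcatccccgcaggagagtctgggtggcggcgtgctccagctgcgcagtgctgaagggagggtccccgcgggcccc
Nid1: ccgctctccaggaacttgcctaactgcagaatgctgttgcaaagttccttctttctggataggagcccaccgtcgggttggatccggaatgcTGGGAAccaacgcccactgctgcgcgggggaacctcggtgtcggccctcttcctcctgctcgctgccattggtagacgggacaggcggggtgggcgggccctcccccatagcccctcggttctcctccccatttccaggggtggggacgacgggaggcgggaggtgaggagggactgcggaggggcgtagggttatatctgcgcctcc

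The distal Col18a1 window holds no match and the proximal window holds 1. A match was found in 9 of the 23 matrix genes with a window (39.1%), against 28.3% of all 27025 genes with a window. Among the 8 genes with a window whose groups did not overlap, 3 had a match (37.5%). These letters are a description of the windows, and binding was not measured.

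The other basement membrane collagens differed less. Collagen XV, which bridges the basement membrane to stromal fibrils, is encoded by Col15a1, with log2 ratios of 0.15, 0.44 and 0.50 in PB-NICD prostates, against 0.70, 1.06 and 0.965 in control 1, 2 and 4. The groups did not overlap, and the change was -0.54 ± 0.16 (SE) with an adjusted p of 0.136. Its second probe gave a change of -0.56, but there the array labelled PB-NICD 1 read 0.70 and PB-NICD 2 and 3 read 2.49 and 3.04, against 2.27 to 3.02 in controls. With the slide as a fixed block Col15a1 was called at -0.61 (adjusted p = 0.0408; 0.0275 to 0.996 over its alternatives). Col4a1 and Col4a2 encode the chains of the main collagen IV network. Col4a2 read -0.47 and -0.32 in PB-NICD 1 and 3, against -0.26, 0.08, -0.11 and -0.13 in controls, without overlap (-0.29 ± 0.15, adjusted p = 0.449). Col4a1 overlapped between the groups, at -0.33, -0.41 and 0.05 in PB-NICD prostates, against -0.06, -0.02, -0.15 and 0.09 in controls (-0.20 ± 0.14, adjusted p = 0.631), and its dimmer probe had a change of the other sign, 0.07. For the 4 basement membrane collagens the median change was -0.42.

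The fibrillar collagens carry the bulk of stromal tensile strength, and none of the 4 tested was called. Col5a1, a chain of the collagen V that nucleates fibrils, had log2 ratios of -0.62, -0.79 and -0.60 in PB-NICD prostates, against -0.06, -0.25, -0.42 and -0.36 in controls. All 3 PB-NICD values lay below all 4 control values (-0.40 ± 0.13, adjusted p = 0.167), while a second probe differed by -0.12 and overlapped. Col1a1, the major chain of collagen I, read -0.26 and -0.22 in PB-NICD 2 and 3, against 0.07, -0.09, -0.06 and 0.01 in controls, with a change of -0.22 ± 0.13 (adjusted p = 0.539). The groups did not overlap, yet the spot of the array labelled PB-NICD 1, left out as an outlier, read 0.53, above every control, and with it Col1a1 changed by 0.04. The 2 dimmer Col1a1 probes, measured on PB-NICD 1 as well, gave changes of -0.48 and -0.37.

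Col3a1, the collagen III that accompanies collagen I in compliant tissue, read 0.47, -0.11 and 0.60 in PB-NICD prostates, against 0.75, 0.57, 0.41 and 0.55 in controls. The groups overlapped (-0.25 ± 0.18, adjusted p = 0.619), and PB-NICD 2 alone lay below all controls. Col1a2, the partner chain of Col1a1, overlapped as well, with a change of -0.19 and an adjusted p of 0.783. Col5a2 had a probe well above background on all arrays, but 4 of its 7 spots were outliers and it was not tested. The median change of the fibrillar collagens was -0.24, and 0.01 (-0.10 relative to all items) with median centring.

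Col6a1 and Col6a2 encode chains of collagen VI, which forms beaded filaments around cells. Col6a2 had log2 ratios of 0.18, -0.07 and 0.11 in PB-NICD prostates, against 0.49, 0.41, 0.33 and 0.46 in controls, with no overlap (-0.35 ± 0.12, adjusted p = 0.195). Col6a1 read -0.41, -0.89 and -0.84 in PB-NICD prostates, against -0.30, -0.30, -0.55 and -0.54 in controls. PB-NICD 1 lay among the controls and the other PB-NICD samples below all of them, for a change of -0.29 ± 0.15 (adjusted p = 0.454). Col14a1, which decorates fibril surfaces, was well above background on 2 PB-NICD and 1 control arrays. It read -0.11 and -0.88 in PB-NICD 1 and 2, against -0.22, -0.51 and -0.30 in control 1, 3 and 4, a wide spread that enclosed the controls (-0.15 ± 0.25, adjusted p = 0.865).

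**Figure D4:**
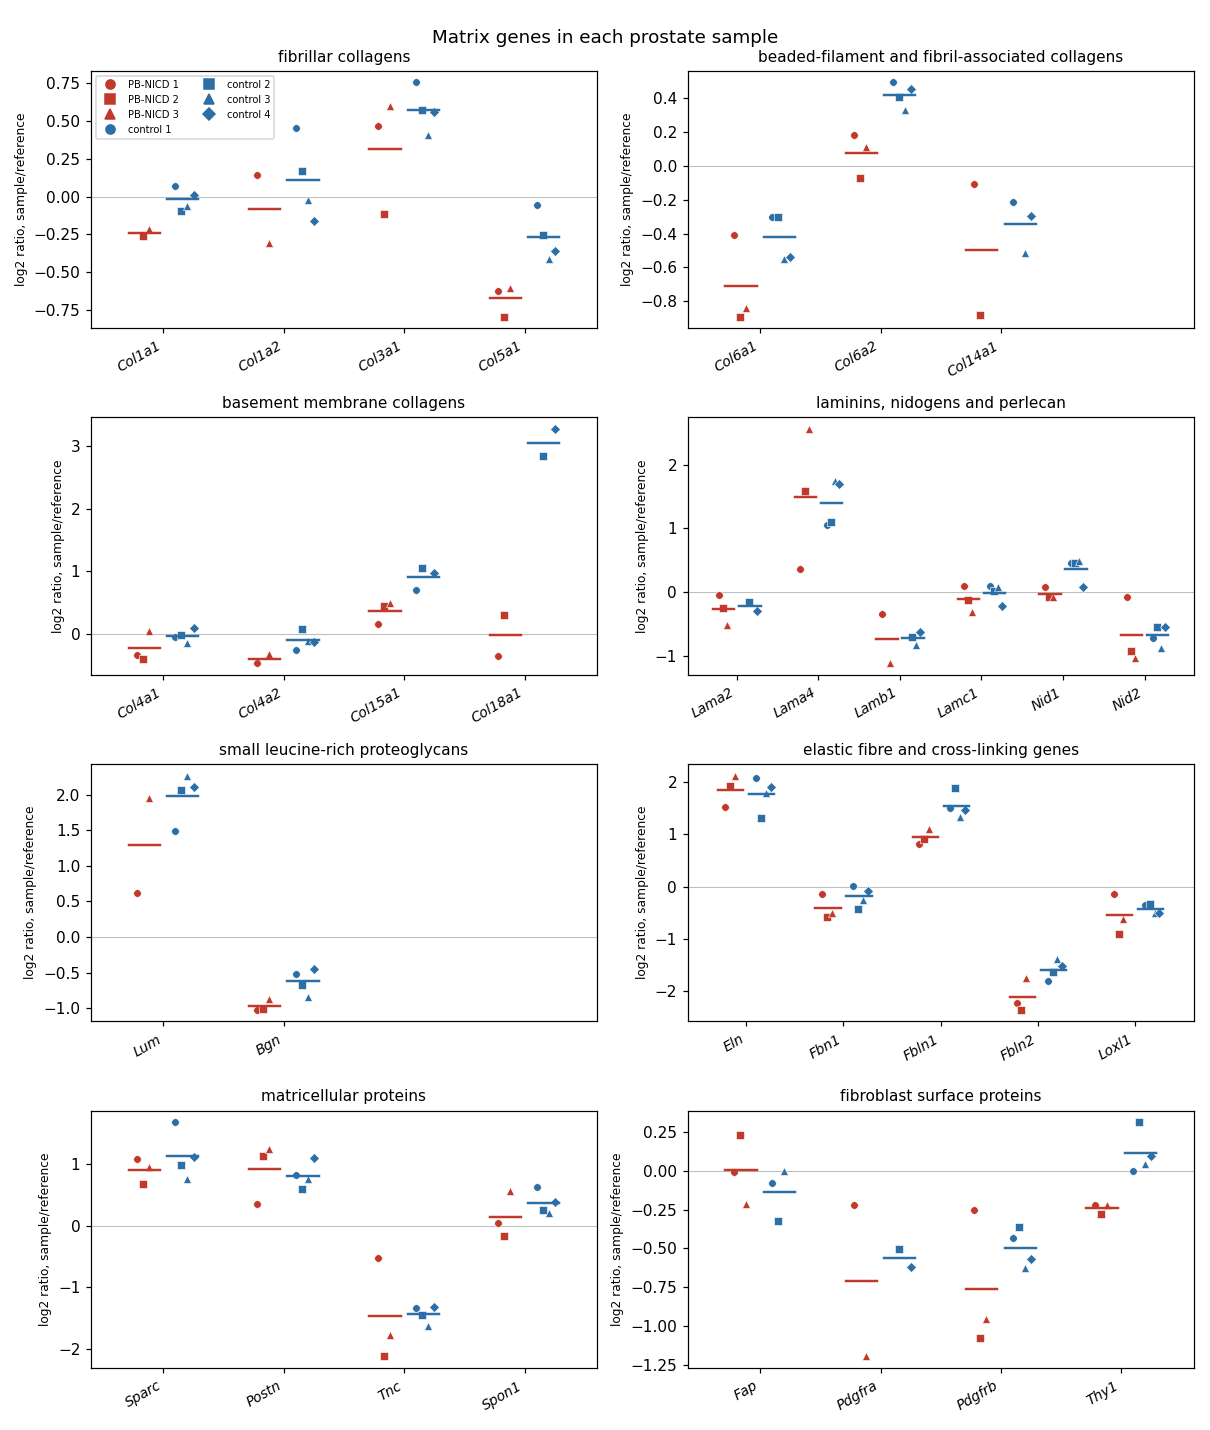
Log2 ratio of sample over reference of the 32 tested matrix genes in each sample, by role, with PB-NICD in red to the left of control in blue and a bar at each group's mean. Outlier spots are not drawn. In Col18a1, Col15a1, Fbln1, Thy1 and 6 further genes the red points all lie below the blue ones.

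Among laminins and nidogens only Nid1 separated the groups. Nid1, which links laminin to collagen IV, had log2 ratios of 0.08, -0.08 and -0.08 in PB-NICD prostates, against 0.45, 0.46, 0.49 and 0.08 in controls. The separation rested on PB-NICD 1 (0.0820) and control 4 (0.0841), which lay almost level, and the change was -0.40 ± 0.14 (adjusted p = 0.197). Lama4, the laminin chain of vessel basement membranes, read 0.36, 1.58 and 2.56 in PB-NICD prostates, against 1.06, 1.11, 1.75 and 1.69 in controls. The PB-NICD values lay both below and above all controls, for a change of 0.10 ± 0.43 (adjusted p = 0.956), and a second probe with the same pattern, 0.25, 1.47 and 2.05 in PB-NICD prostates, changed by -0.16. Without the array labelled PB-NICD 1 the change of Lama4 was 0.67.

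Lamc1, the shared gamma chain of most laminins, read 0.09, -0.11 and -0.30 in PB-NICD prostates, against 0.10, 0.02, 0.08 and -0.21 in controls. Lama2, the chain of muscle and nerve basement membranes, read -0.04, -0.24 and -0.51 in PB-NICD prostates, against -0.15 and -0.29 in control 2 and 4. Both overlapped, with changes of -0.10 ± 0.14 (adjusted p = 0.830) and -0.04 ± 0.18 (adjusted p = 0.953). Lamb1 and Nid2 had changes of -0.01 each (adjusted p = 0.992 and 0.996), and Nid2 was well above background on 3 PB-NICD and 1 control arrays. In Nid2 the array labelled PB-NICD 1 read -0.08, while PB-NICD 2 and 3 read -0.92 and -1.02, against -0.87 to -0.54 in controls. The median change of the 6 was -0.03, close to that of all items, and its sign depended on the setting. It was -0.25 without PB-NICD 1 and -0.20 within slide 2, against 0.07 within slide 1, 0.04 without PB-NICD 3, 0.14 with the software's processed signals and 0.08 with median centring (-0.04 relative to all items).

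Decorin, lumican and biglycan are small leucine-rich proteoglycans that bind collagen fibrils. Bgn had log2 ratios of -1.02, -1.02 and -0.88 in PB-NICD prostates, against -0.52, -0.67, -0.85 and -0.45 in controls. The groups did not overlap, though PB-NICD 3 lay close to control 3 (-0.35 ± 0.13, adjusted p = 0.248). Lum read 0.62 and 1.96 in PB-NICD 1 and 3, against 1.49, 2.06, 2.27 and 2.10 in controls. PB-NICD 1 was far below the rest and PB-NICD 3 among them (-0.69 ± 0.36, adjusted p = 0.439), and without PB-NICD 1 the change was -0.02.

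Dcn was not tested, since 5 of its 7 spots were outliers. With outlier spots kept it read 2.45, 2.18 and 2.52 in PB-NICD prostates, against 3.28, 3.03, 3.31 and 3.097 in controls. Every PB-NICD value lay below every control value, and Dcn was called in that alternative together with Col18a1.

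Elastic fibres consist of elastin on a fibrillin scaffold, with fibulins bridging them and lysyl oxidases cross-linking them. Fbln1, a fibulin of elastic fibres and basement membranes, had log2 ratios of 0.83, 0.92 and 1.11 in PB-NICD prostates, against 1.51, 1.89, 1.33 and 1.47 in controls. All PB-NICD values lay below all control values, and the change of -0.60 ± 0.16 had the second lowest adjusted p of the list, 0.0856. It was called with the slide as a fixed block (-0.58, adjusted p = 0.0432), with the slide as a random block (adjusted p = 0.0468) and within slide 1 (-0.88, adjusted p = 0.0206), and its adjusted p over all alternatives ran up to 0.946. Its dimmer probe changed by -0.11.

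Fbln2, another fibulin gene, read -2.23, -2.35 and -1.74 in PB-NICD prostates, against -1.81, -1.63, -1.38 and -1.51 in controls. PB-NICD 3 overlapped control 1 (-0.52 ± 0.18, adjusted p = 0.176). Fbn1, which encodes fibrillin-1, read -0.14, -0.58 and -0.51 in PB-NICD prostates, against 0.02, -0.42, -0.25 and -0.09 in controls, also with overlap (-0.22 ± 0.16, adjusted p = 0.613). Eln and the cross-linking enzyme gene Loxl1 had changes of 0.08 (adjusted p = 0.921) and -0.13 (adjusted p = 0.834). Lox was well above background on 1 PB-NICD array and no control array, and Fbln5 on no array, so neither was tested. Over the 5 tested genes the median change was -0.22.

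No matricellular gene separated the groups on a tested probe. Sparc, a collagen-binding glycoprotein of remodelling tissue, read 1.08, 0.69 and 0.96 in PB-NICD prostates, against 1.68, 1.00, 0.76 and 1.13 in controls (-0.23 ± 0.21, adjusted p = 0.723). Spon1, which encodes the secreted adhesion protein F-spondin, read 0.04, -0.17 and 0.56 in PB-NICD prostates, against 0.64, 0.26, 0.21 and 0.39 in controls (-0.23 ± 0.19, adjusted p = 0.683). On these probes the PB-NICD values of Sparc lay in or below the lower part of the control range, and those of Spon1 below and within it. A brighter Sparc probe was not tested, since the spots of all PB-NICD samples and of control 1 and 2 were outliers. With outlier spots kept it read 0.95, 0.53 and 1.14 in PB-NICD prostates, against 1.55, 1.37, 1.24 and 1.45 in controls, without overlap.

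Postn, periostin of activated stroma, read 0.36, 1.14 and 1.25 in PB-NICD prostates, against 0.82, 0.59, 0.76 and 1.10 in controls (0.10 ± 0.22, adjusted p = 0.905). Tnc, tenascin-C, was well above background on 1 PB-NICD and 2 control arrays and read -0.52, -2.12 and -1.77 in PB-NICD prostates, against -1.33, -1.44, -1.63 and -1.32 in controls (-0.04 ± 0.32, adjusted p = 0.976). In each of these the array labelled PB-NICD 1 lay on the opposite side of the controls from PB-NICD 2 and 3. Cthrc1 was well above background on no array. Over the 4 tested genes the median change was -0.14, and 0.12 with median centring, where all items also had 0.12.

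The fibroblast surface genes include Thy1, a surface glycoprotein of fibroblasts and T cells, with log2 ratios of -0.22, -0.28 and -0.22 in PB-NICD prostates, against -0.0005, 0.31, 0.05 and 0.10 in controls. The groups did not overlap (-0.35 ± 0.12, adjusted p = 0.193), and the probe was well above background on 3 PB-NICD and 3 control arrays. Its control 4 spot read 69 units in the sample channel and 191 in the reference. The reference read 3039 to 3508 on the other controls. A second probe changed by -0.22, and on it the groups overlapped. Pdgfrb, the receptor of pericytes and fibroblasts for platelet-derived growth factor, read -0.25, -1.08 and -0.95 in PB-NICD prostates, against -0.43, -0.36, -0.63 and -0.57 in controls. PB-NICD 2 and 3 lay below all controls and PB-NICD 1 above all, for a change of -0.26 ± 0.20 (adjusted p = 0.642), and without PB-NICD 1 Pdgfrb fell by 0.52 (adjusted p = 0.0448; 0.00981 to 0.989 over its alternatives).

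Fap, a protease of activated fibroblasts, was well above background on 2 PB-NICD and 2 control arrays. It read -0.01, 0.23 and -0.22 in PB-NICD prostates, against -0.08, -0.32 and -0.0021 in control 1, 2 and 3 (0.14 ± 0.16, adjusted p = 0.804). Pdgfra, the sister receptor, overlapped (-0.15, adjusted p = 0.906). The median change of the 4 was -0.20, and it too depended on single arrays. It was -0.44 without PB-NICD 1 and -0.37 within slide 2, against 0.17 within slide 1, 0.04 without PB-NICD 3 and 0.06 with median centring (-0.05 relative to all items).

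Over 5 further lists of matrix-related genes, 5 of 112 tested genes fell (4.46%) and 1 rose (0.893%), against 2.29% and 0.407% of all items. Of 24 tested genes for collagen-modifying and secretion enzymes, 2 fell and none rose, P4hb (-1.45 ± 0.17, adjusted p = 0.00615) and Ppib (-1.14 ± 0.17, adjusted p = 0.00864). For P4hb only control 3 and 4, both on the slide of PB-NICD 2 and 3, gave control values. P4hb encodes protein disulfide isomerase, the shared subunit of collagen prolyl 4-hydroxylase, and Ppib a prolyl isomerase of the endoplasmic reticulum. Ppib read 1.33, 1.598 and 1.87 in PB-NICD prostates, against 2.86, 2.47, 2.95 and 2.69 in controls. Both proteins also serve other secreted proteins, and the other 22 enzyme genes, including those particular to collagen, did not pass. That list had a median change of -0.15. P4hb lost its call without control 4, which leaves control 3 as its only control value, and Ppib kept its call with any 1 sample left out.

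Of 29 other matrix proteins 1 fell, Efemp1, fibulin-3 (-0.84, adjusted p = 0.0452), and of 21 other collagens 1 fell, the membrane collagen Col25a1 (-0.81, adjusted p = 0.0213), for which a second probe changed by 0.12. Among 20 matrix receptors Sdc1, an epithelial syndecan, rose (0.75, adjusted p = 0.0161) and Itga6, a laminin-binding integrin of basal cells, fell (-0.66, adjusted p = 0.0375). Sdc1 read 0.64, 0.72 and 0.94 in PB-NICD prostates, against -0.02, -0.01, 0.17 and -0.07 in controls. None of 18 genes of the TGF-beta pathway, a main inducer of matrix genes, was called, the lowest p being that of Tgfbr3 (-0.45, adjusted p = 0.142), which was called without background subtraction (-0.48, adjusted p = 0.0417) and in the authors' table (-0.45, adjusted p = 0.0111). With 1 of the 7 samples left out in turn, Efemp1 and Itga6 each kept their call 1 time, Col25a1 2 times and Sdc1 4 times. Efemp1 and Itga6 lost theirs without any sample but PB-NICD 1. PB-NICD 1 held no value for Efemp1, so Efemp1 lost its call whenever a value of its own was removed. Control 3 held no value for Col25a1, so leaving it out removed none. Col25a1 lost its call without control 1, 2 or 4 or PB-NICD 2 or 3 (adjusted p up to 0.107). Sdc1 lost its call without control 1, 2 or 4 (adjusted p up to 0.0679). The changes kept their sign throughout: -1.02 to -0.65 for Efemp1, -0.73 to -0.58 for Itga6, -0.89 to -0.74 for Col25a1 and 0.66 to 0.81 for Sdc1.

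Markers of the cells that make or border the matrix were read beside it. Smooth muscle genes were lower on average, with 12 of 12 changes below 0 and a median of -0.54 (10 of 12 and -0.35 relative to all items with median centring), but 1 called, Tpm2 (-0.86, adjusted p = 0.0265), which lost its call without control 1, 2 or 4 or PB-NICD 2. Other fibroblast markers had a median change of -0.30 (-0.16 without PB-NICD 1, -0.0950 without background subtraction and -0.0857 in the authors' table), 10 of 13 were below 0, and 1 fell, Clec3b (-1.20, adjusted p = 0.00361), whose call held with any 1 sample left out. Clec3b, tetranectin of adventitial fibroblasts, read -0.45, -0.51 and -0.25 in PB-NICD prostates, against 0.72, 0.78 and 0.88 in control 1, 2 and 4. Basal epithelial cells, which also lay down basement membrane, showed the lowest median, -0.62, with 3 of 6 tested markers fallen, Krt5 (-1.87, adjusted p = 0.000413), Krt15 (-1.48, adjusted p = 0.0173) and Itga6. Krt5 read 0.06, -0.13 and 0.18 in PB-NICD prostates, against 1.88, 2.21, 1.83 and 1.69 in controls. Krt15 lost its call without control 1 or 3.

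The endothelial, leukocyte and Schwann cell lists had medians of 0.05, 0.02 and -0.12, against -0.05 for all items, with no gene called. Their lowest p values were those of Emcn (-0.90, adjusted p = 0.0684), Itgam (-0.14, adjusted p = 0.691) and S100b (-0.19, adjusted p = 0.505). Emcn was called in 7 of 22 alternatives, among them the slide as a fixed block (-0.96, adjusted p = 0.00898) and as a random block (adjusted p = 0.0207). Luminal markers had a median change of -0.16. Its sign turned without PB-NICD 1 (0.14), without control 3 (0.03) or control 4 (0.02), without background subtraction (0.15) and in the authors' table (0.10). Of 9 luminal markers 1 fell, Cd24a (-1.998, adjusted p = 0.0379), measured only in PB-NICD 2 and 3 and control 2 and 4. Cd24a lost its call without any 1 control, although control 1 and 3 held no value for it and its change without either stayed at -1.998. The summed sample signal of the 12 smooth muscle genes was 142613 to 174224 units on the PB-NICD arrays, against 137772 to 205560 on the control arrays, that of the 13 fibroblast markers 30516 to 46780 against 29236 to 45012, and that of the 6 basal markers 5361 to 6485 against 7632 to 12123. Of the defining markers, Kdr of endothelium and Twist1 of fibroblasts were well above background on no array, and Cd68 and Sox10 had no probe named here. The part of these cell types in the changes of the matrix genes was not tested.

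**Figure D5:**
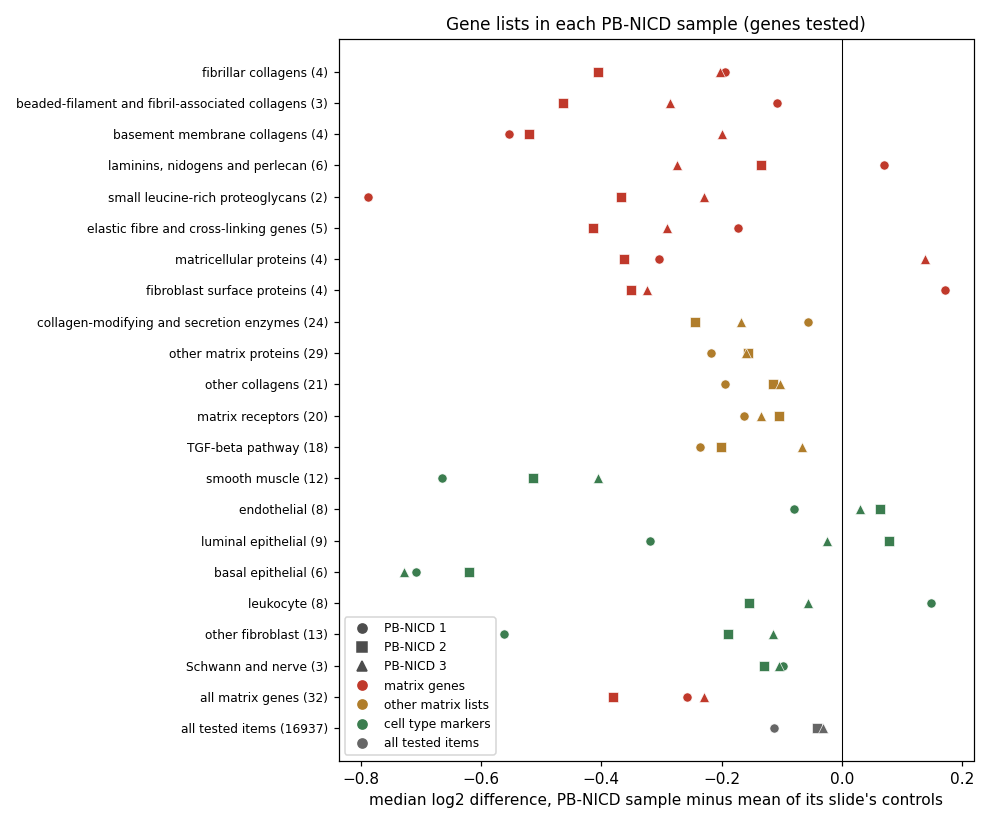
Median log2 difference between each PB-NICD sample and the mean of the controls on its slide, for the 8 groups of matrix genes (red), 5 further matrix lists (brown), 7 cell type marker lists (green) and the totals, with the number of genes tested in brackets. Basal and smooth muscle markers lie below 0 in all 3 PB-NICD samples, and the matrix genes together at -0.26, -0.38 and -0.23.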

How the data were processed

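Prostate RNA of 3 PB-NICD and 4 control samples was measured on 2-colour Agilent arrays, sample RNA in red, a universal mouse reference in green and no dye swap. Agilent Feature Extraction 10.7.3.1 read the spots, per the file headers. Intensity values used here, as deposited, are the median spot and background signals, not normalized, and the software's processed signals. The deposited LogRatio column is a log10 ratio, and the authors' value table holds values on a log2 scale whose normalization the sources used here do not give (Pearson r with the same array's ratios 0.969 to 0.982 across probes, which are not independent replicates). Both served as checks or alternatives.

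Background was corrected with normexp (offset 50), followed by loess within arrays in limma 3.58.1 (R 4.3.3). Control spots were removed, outlier spots set missing and spots of a probe averaged. A probe was tested if well above background on at least 3 arrays with at least 2 values in each group, and the brightest probe stood for a gene. The offset understates changes of dim genes. The arrays held 45018 spots, 1639 of them controls, and 41174 probes, of which 24375 received a symbol through RefSeq accessions (GRCm38.p6) and 16799 none. Per the file headers the array design is annotated on an older build, so no gene coordinates are printed beyond the RefSeq start windows.

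Groups were compared by lmFit and eBayes, two-sided, with group as the only term and Benjamini-Hochberg adjustment over 16937 items at 0.05. Nothing says how the samples were collected, so p-values measure the spread between these samples, and the number of arrays limits the precision. The fit was tested on simulated data. Values in every sample are given for called members, the 3 of each role group with the lowest p, those whose groups do not overlap and those whose probes disagree. Members and lists were chosen with earlier results of these data known. Samples with the same replicate number correlated at 0.35, -0.38 and 0.25 in their deviations, so numbers were not taken as pairs. Those numbered 1 shared a slide, as did those numbered 3, while those numbered 2 did not. The slide was not a term of the main fit and entered only as an alternative. Alternatives covered background, scaling, filters, outliers, slide, probes, the authors' table and each sample left out.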

Additional observations from a re-analysis of the deposited data

Results flagged for a closer look

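One value stood far from the rest of its group. In Nid1, nidogen-1, control 4 had a log2 ratio of 0.0841, while the other 3 controls lay between 0.45 and 0.49, so its gap to the nearest control was 0.918 of the group's range, above Dixon's 95% critical value for 4 samples. The control groups of 25 matrix genes were checked in this way, and chance flags about 1 in 20. Control 4 lay next to PB-NICD 1 (0.0820), and without control 4 the change of Nid1 was -0.49, against -0.40 with it.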

How the results depend on the processing

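The fall of Col18a1 had the same sign in all 22 alternatives and was called in 19 of them. Not all of these were separate checks. Within either slide a single PB-NICD and a single control value remained for Col18a1, and with the replicate block a single pair. Scaling between arrays left its ratios unchanged, and some samples left out held no value for it. Col18a1 was not called with median centring in place of loess (-2.89), with the mean of a gene's probes (-1.03) or with the dimmest probe (-0.39, an alternative added after the data were seen). Over the 26 matrix genes followed and 16 further genes, 771 values kept sign and call, 68 kept the sign and lost the call, 23 gained a call and 52 changed sign, and the causes were not tested. The 771 include values that were bound to agree, since scaling between arrays leaves every ratio unchanged. Leaving out a sample that lacks a value for a gene cannot change the gene's sign.

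Genes called over all items numbered 457, against 1541 without background subtraction, 1131 with processed signals, 1 with median centring, 1390 with the slide as a fixed block, 967 with it as a random block (correlation 0.24), 2106 within slide 1, 950 within slide 2, 161 with the replicate block, 3708 in the authors' table and 190 to 1171 with 1 sample left out. Within slide 1, PB-NICD 1 is a lone sample assumed to vary like the controls. Matrix genes called numbered 1, against 0 with median centring, the mean of probes or the dimmest probe and 2 with outliers kept (Col18a1, Dcn). They numbered 3 and 2 with the slide as a fixed and a random block, and 1 to 2 with 1 sample left out. Calls on the authors' values numbered 10 of 34, against 3708 of 19550 items. Not all of these were falls, since Postn was higher there (0.48). Within slide 1 the change was below 0 in 20 of 31 matrix genes (64.5%), against 63.3% of all items. With the replicate block the median change of the matrix genes was -0.24. Col18a1 stayed called, but its change there rested on PB-NICD 2 against control 2 alone. That pair leaves no spread between samples to measure, so the call is no separate check. The block changed no call among the matrix genes, but P4hb, Efemp1, Col25a1, Itga6, Sdc1, Tpm2, Krt15 and Clec3b lost theirs with it (adjusted p from 0.0539 to 0.240). The median change was -0.0001 with median centring and -0.35 to -0.13 with 1 sample left out. Matrix genes lower without overlap numbered 10 (31.2%, against 14.3% of all items). They numbered 6 without background subtraction (18.8% against 15.8%), 2 with processed signals (6.25% against 12.4%), 1 with median centring (3.12% against 2.6%), 18 within slide 1 (56.2% against 53.8%), 22 within slide 2 (68.8% against 35%), 6 with the mean of probes (18.8% against 12.7%), 4 with the dimmest probe (12.5% against 11.9%) and 10 to 20 with 1 sample left out. With processed signals the share was below that of all items, and without background subtraction, with median centring, within slide 1 and with the dimmest probe it was near it.

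Sign changes were as follows. Without background subtraction Lamc1 was 0.0254 and Lum 0.23. With processed signals Col14a1 was 0.11, Col4a1 0.0796, Lama2 0.21, Lamc1 0.0783 and Tnc 0.0292. With median centring Col1a1 was 0.64, Col3a1 0.0975, Col6a1 0.0344, Col4a1 0.13, Lama2 0.24, Lamc1 0.20, Bgn 0.0125, Sparc 0.10, Tnc 0.15, Tgfbr3 0.0023 and S100b 0.17. Of these Col3a1, Col6a1, Bgn, Sparc and Tgfbr3 lay below the median of all items under that centring, 0.12. With outliers kept Col1a1 was 0.0358 and Col14a1 0.0283. With the slide as a fixed block Lama4 was -0.0788 and Tnc 0.0618, and as a random block Tnc was 0.0122. Within slide 1 Col14a1 was 0.11, Lama2 0.10, Lama4 -0.72, Lamc1 0.0385, Fbn1 0.0615, Postn -0.35, Tnc 0.86, Pdgfrb 0.15 and Itgam 0.0092. With the replicate block Col14a1 was 0.11. With the mean of probes Col14a1 was 0.0028 and Lama4 -0.0326, and with the dimmest probe Col4a1 was 0.0665, Lama4 -0.16, Tnc 0.0116 and Col25a1 0.12. In the authors' table Col1a1 was 0.20, Lama2 0.0181, Lamc1 0.10 and Lum 0.11. With 1 sample left out, Lama4 ranged from -0.43 to 0.67, Lama2 from -0.15 to 0.0764, Col14a1 from -0.54 to 0.24, Postn from -0.0687 to 0.38 and Tnc from -0.52 to 0.28.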
